A study of Homo sapiens with 9 samples.

Results

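The endoplasmic reticulum (ER) folds secreted and membrane proteins with chaperones, disulfide isomerases and lectins, and passes misfolded ones to the cytosol for degradation. When unfolded proteins build up, or when the calcium store of the ER is drained, 3 membrane sensors, IRE1 (gene ERN1), ATF6 and PERK (gene EIF2AK3), start the unfolded protein response, which raises chaperone and degradation genes and slows translation. A set of 34 genes of this system was taken by symbol from a table of 61093 genes, by a list of names. No measured value entered that rule, but the list was chosen with earlier results of these data known. All 34 were found by Ensembl identifier, and all 34 were among the 17492 genes tested, those that reached 10 normalized counts in 3 or more libraries.

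RNA was sequenced from cells labelled HepG2, a human hepatocellular line, in 3 groups of 3 libraries. One group was given 2-APB, called a TRPV2 agonist in the series text. Another was given SKF-96365, called an inhibitor of the same cation channel, and the third was the control. As background, 2-APB and SKF-96365 are also used to modulate store-operated calcium entry, through which cells refill the ER calcium store. No genetic change is given for any group, and dose, exposure time and vehicle are not given in the labels. Sample titles of the 2-APB group read ABP and their value columns carry the name TRPV2, so the group was taken from the treatment label. The labels do not say whether the libraries of a group came from separate cultures, so p-values measure only the spread between these libraries, which may be technical. All comparisons with control use the same 3 control libraries.

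Depth was 14786059 to 19026545 reads per library, and the mitochondrial share of the signal was 6.90% to 8.04%. Of 20 hepatocyte secretory markers, 2 had a mean of at least 50 normalized counts, 10 had a mean under 1, and the albumin gene ALB averaged 4.24. SERPINA1, the alpha-1-antitrypsin gene, was among those that reached 50, with 207 to 523 over the libraries. Mesenchymal and matrix markers reached that mean in 16 of 18 cases. Leukocyte and endothelial markers did so in 1 of 7 and 0 of 5. Libraries stood across their labels: across tested genes, which are not independent replicates, Pearson's r of control 3 averaged 0.987 with SKF-96365 2 and 3 but 0.959 with its own group. For SKF-96365 1 the average was 0.971 with its own group, 0.978 with control 1 and 2, and 0.988 with 2-APB 3. The comparisons are therefore also given with these libraries left out.

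Stress-responsive promoters of this system carry short elements known from mammalian cells. The ER stress response element (ERSE) is CCAAT and CCACG with 9 bases between them, where NF-Y binds the first half-site and ATF6 the other. ERSE-II is ATTGG and CCACG with 1 base between, and the unfolded protein response element (UPRE) core is TGACGTGG, a site of XBP1. RefSeq promoters on build GRCh38.p14, 250 bases before to 50 bases after a start site, were searched for exact matches on both strands. Promoters were listed for 32 of the 34 genes. An ERSE stood in 7 of these 32 (PDIA6, CANX, HSPA5, HSP90B1, CALR, XBP1 and CRELD2), against 25 of the 27305 genes with a listed promoter (0.0916%). ERSE-II stood in HYOU1, HERPUD1 and SDF2L1, against 19 of the 27305 genes with a listed promoter (0.0696%). UPRE stood in DNAJC10 and HYOU1, against 253 of the 27305 genes with a listed promoter (0.927%), and in HYOU1 it overlapped 1 of 2 ERSE-II matches. CCACG alone stood in 24 of the 32, against 42.1% of these genes. The counts over all genes include the members. The elements are known from stress-responsive promoters of this system, so a higher share among its genes is no independent result. A match describes these letters and shows neither a bound site nor a cause.

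The upstream bases of HSPA5, the gene of the chaperone BiP, are shown whole because its promoter is a textbook case of these elements. Elements of other genes are shown with up to 20 bases on each side. Only exact matches are marked, and inexact ones were not searched for. Capitals mark the matched element, each sequence runs 5′ to 3′ on the strand of the gene, and positions count from the RefSeq start site. Chromosome coordinates span all printed bases. Positions span all printed bases for HSPA5 and only the capitals for the other genes.
HSPA5, chr9:125241344-125241593, minus strand, -250 to -1: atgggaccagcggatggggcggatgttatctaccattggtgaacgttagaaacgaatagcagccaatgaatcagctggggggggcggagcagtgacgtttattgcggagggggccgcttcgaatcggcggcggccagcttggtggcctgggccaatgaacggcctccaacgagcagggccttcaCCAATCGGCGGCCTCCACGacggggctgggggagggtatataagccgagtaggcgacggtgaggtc
HSP90B1, ERSE, chr12:103930196-103930254, plus strand, -194 to -176: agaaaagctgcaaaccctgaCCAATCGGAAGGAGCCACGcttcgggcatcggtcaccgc
HSP90B1, ERSE, chr12:103930301-103930359, plus strand, -89 to -71: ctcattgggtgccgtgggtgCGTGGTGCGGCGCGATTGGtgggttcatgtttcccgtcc
XBP1, ERSE, chr22:28800583-28800641, minus strand, -52 to -34: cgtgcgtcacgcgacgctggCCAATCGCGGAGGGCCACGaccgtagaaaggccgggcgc
CRELD2, ERSE, chr22:49918534-49918592, plus strand, -80 to -62: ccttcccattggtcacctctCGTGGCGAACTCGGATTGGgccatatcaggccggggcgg
PDIA6, ERSE, chr2:10812833-10812891, minus strand, -86 to -68: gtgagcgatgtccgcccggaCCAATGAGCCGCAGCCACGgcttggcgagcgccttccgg
CANX, ERSE, chr5:179698758-179698816, plus strand, -151 to -133: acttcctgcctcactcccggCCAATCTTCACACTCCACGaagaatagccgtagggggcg
CALR, ERSE, chr19:12938364-12938422, plus strand, -225 to -207: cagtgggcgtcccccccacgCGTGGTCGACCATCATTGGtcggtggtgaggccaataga
HERPUD1, ERSE-II, chr16:56932005-56932055, plus strand, -117 to -107: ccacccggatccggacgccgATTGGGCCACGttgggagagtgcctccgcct
SDF2L1, ERSE-II, chr22:21642094-21642144, plus strand, -188 to -178: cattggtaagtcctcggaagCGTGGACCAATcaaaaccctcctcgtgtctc
HYOU1, ERSE-II, chr11:119057360-119057410, minus strand, -185 to -175: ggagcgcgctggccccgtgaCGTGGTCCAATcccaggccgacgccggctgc
HYOU1, ERSE-II, chr11:119057254-119057304, minus strand, -79 to -69: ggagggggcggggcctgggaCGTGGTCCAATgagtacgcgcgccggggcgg

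**Figure D1:**
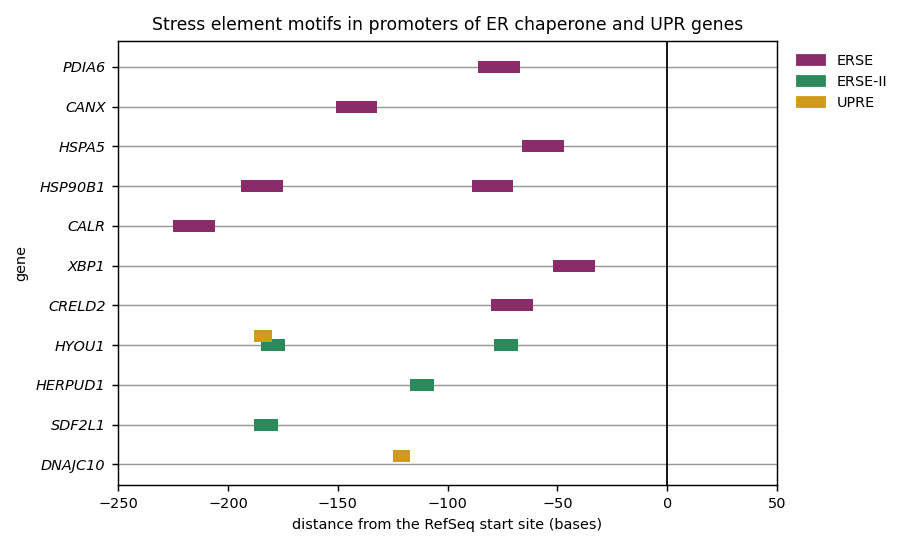
Positions of exact ERSE (19 bases), ERSE-II (11 bases) and UPRE (8 bases) matches against distance in bases from the RefSeq start site, for the 11 genes with at least 1 match; for CANX, 1 of its listed start sites is drawn. Matches lay between -225 and -34 in all 11 genes drawn.

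Levels per kilobase used the union of exons of all transcripts of a gene in GENCODE 29, and the order depends on this length. On it, HSPA5 (6421 normalized counts per kb, mean of 9 libraries) and CALR (6113) stood highest. HSP90B1 (4951), which encodes the ER Hsp90 GRP94, and CANX (3519) followed. CALR and CANX encode calreticulin and calnexin, lectins that hold newly made glycoproteins. The sensor genes ERN1 (25.6) and EIF2AK3 (60.2) stood lowest per kb, below WFS1 (77.5), an ER membrane protein gene. The 34 genes together took 0.923% to 0.989% of the signal of a library, with control 3 lowest and SKF-96365 1 highest. Their spread over the 9 libraries was a median SD of 0.16 on the log2 scale, against 0.20 for the 8408 tested genes with a mean at least as high as the lowest of the 34. Of the 34, 15 stood above that 0.20. The 8408 genes share only this floor and were not matched to the 34 on level.

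**Figure D2:**
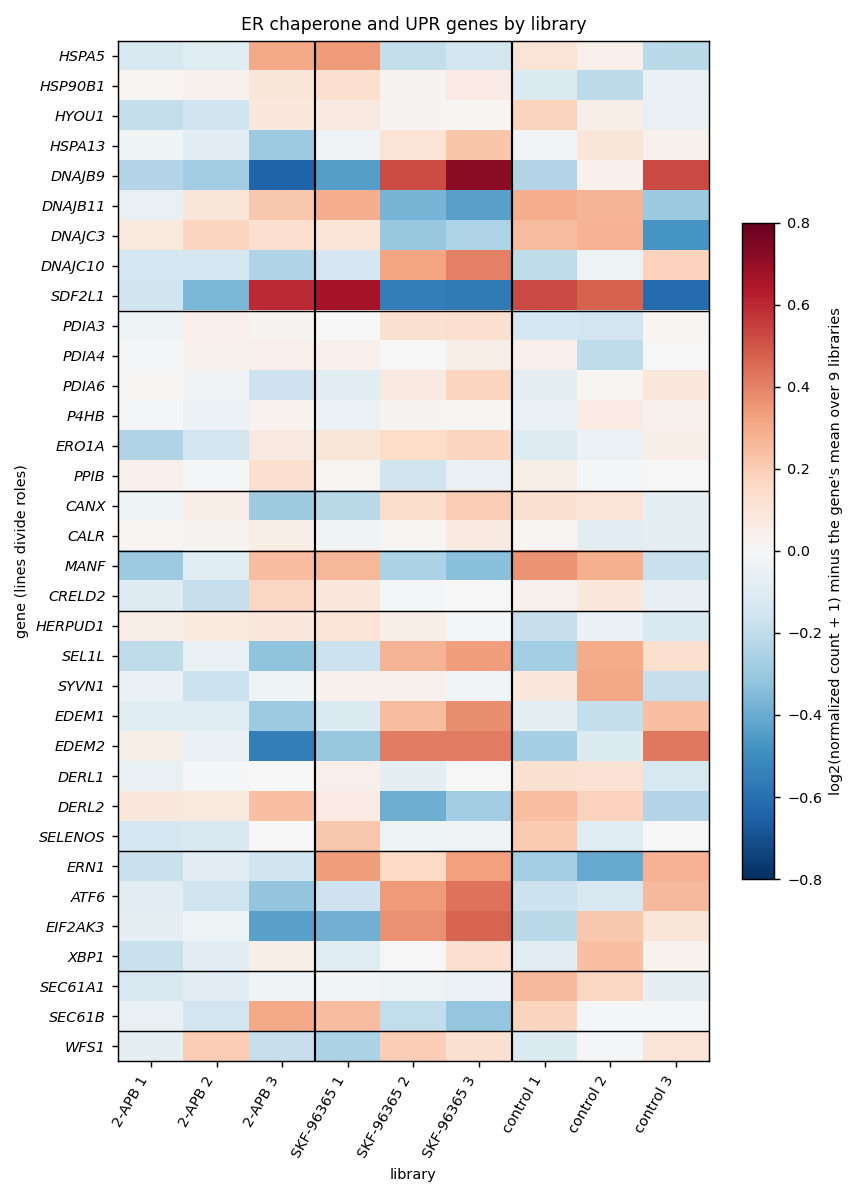
Each cell is log2(normalized count + 1) in a library minus the mean of that gene over the 9 libraries, with 34 genes in rows by role and libraries in columns by group. SDF2L1 and DNAJB9 vary most, and control 3 resembles SKF-96365 2 and 3 more than control 1 and 2.

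No gene of the 34 passed the test in any comparison. The test was limma's with an intensity trend on log2(normalized count + 1), Benjamini-Hochberg adjusted over all 17492 genes, with calls at an adjusted p under 0.05. For SKF-96365 against control it called 0 of 34, with 0% of all genes called. At an unadjusted p under 0.05 stood 1 of 34 (ERN1), against 699 of 17492 genes (4.0%). For 2-APB against control it called 0 of 34 (0% of all genes), with 0 of 34 against 2.80% at the unadjusted threshold. For 2-APB against SKF-96365 it called 0 of 34 (0% of all genes), with 3 of 34 (ATF6, DNAJC10 and ERN1) against 7.30%. Leaving out 1 library at a time gave 0 to 5 of the 34 and 248 to 4460 genes at the unadjusted threshold for SKF-96365 against control, the most genes without control 3. For 2-APB against control these fits gave 0 to 2 of the 34 and 241 to 1662 of 17492 genes, both most without control 3. For 2-APB against SKF-96365 they gave 0 to 10 of the 34 and 478 to 2980 of 17492 genes, both most without SKF-96365 1. By edgeR and DESeq2 on recovered reads 0 of the 34 were called as well.

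With SKF-96365, 20 of the 34 had positive and 14 negative log2 fold changes against control, from -0.28 (SDF2L1) to 0.41 (ERN1). Their median was 0.027, beside -0.0043 over all tested genes. With 2-APB, 9 were positive and 25 negative against control, from -0.50 (DNAJB9) to 0.19 (HERPUD1), with a median of -0.072 beside -0.0016. After rescaling to equal totals that median was -0.024 and 14 of the 34 were positive, and after upper-quartile rescaling 14 were. With 2-APB against SKF-96365, 10 were positive and 24 negative, from -0.65 (DNAJB9) to 0.34 (DERL2), with a median of -0.066 beside 0.0073. Equal totals moved that median to -0.013, with 16 positive.

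**Figure D3:**
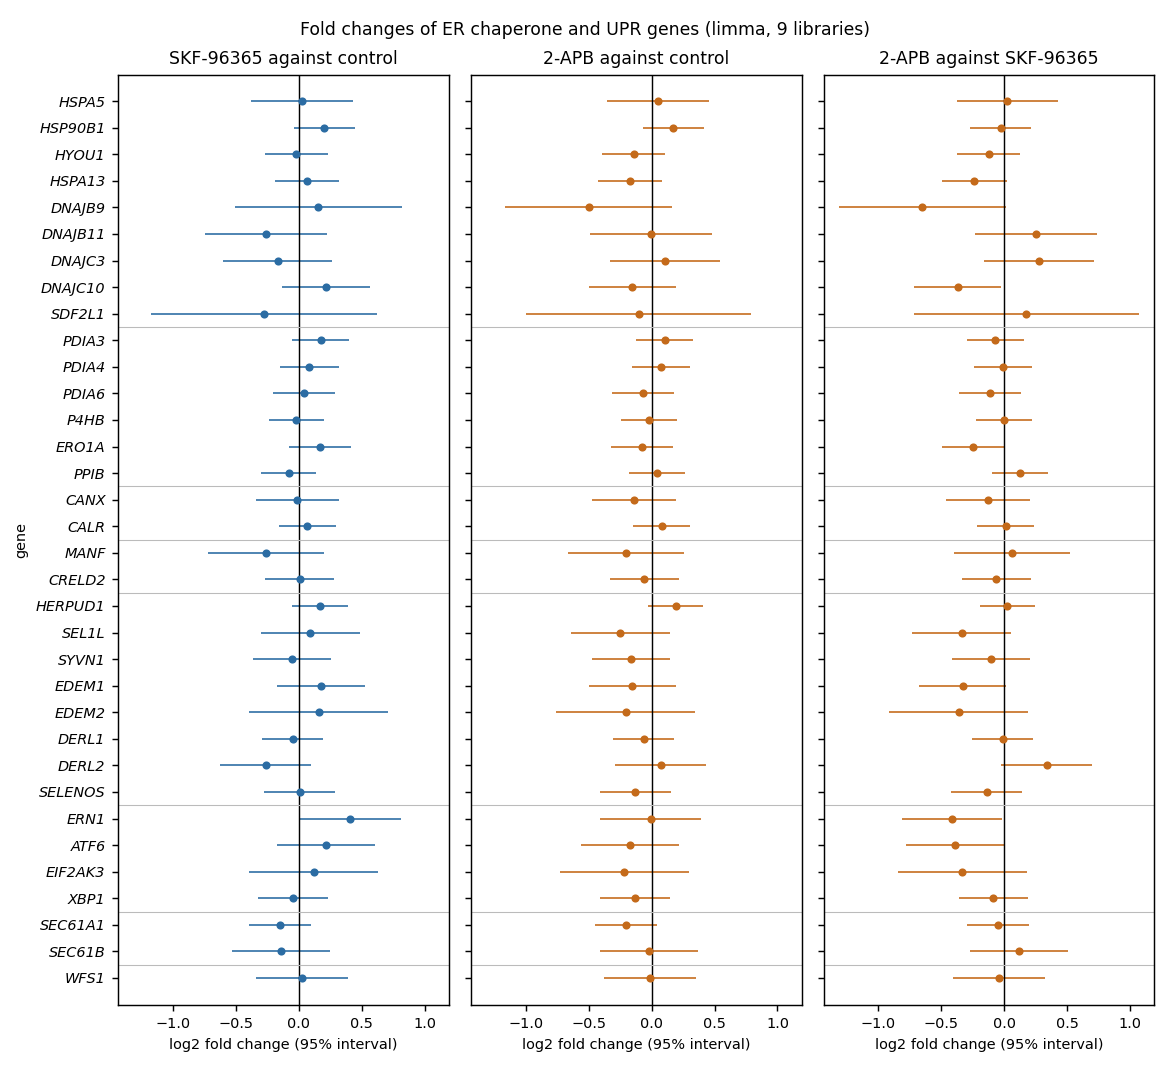
Log2 fold changes (x axis, points) with 95% intervals (lines) of the 34 genes in 3 comparisons from limma over all 9 libraries. Intervals of 33 genes in SKF-96365 against control, of all 34 in 2-APB against control and of 31 in 2-APB against SKF-96365 include 0; they are not adjusted for the number of genes.

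HSPA5 encodes BiP, the ER Hsp70 that binds unfolded chains and holds the sensors inactive. It was at 22737, 23217 and 30677 normalized counts in 2-APB 1 to 3, 31405, 21776 and 22470.2 in SKF-96365 1 to 3, and 26639, 25515 and 21390.0 in control 1 to 3. SKF-96365 1 and 2-APB 3 were highest and control 3 lowest, and the groups overlapped. Log2 fold changes were 0.027 (SE 0.18, adjusted p = 0.9703) for SKF-96365 and 0.052 (SE 0.18, adjusted p = 0.9995) for 2-APB against control in limma, with 95% intervals of -0.38 to 0.43 and -0.35 to 0.46. For 2-APB against SKF-96365 the value was 0.025 (SE 0.18, adjusted p = 0.9731). Single libraries set the sign: without SKF-96365 1 the SKF-96365 value was -0.14, and without 2-APB 3 the 2-APB value was -0.087.

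HSP90B1 was at 23428, 23727 and 24796 normalized counts in 2-APB 1 to 3, 25491, 23583 and 24294 in SKF-96365 1 to 3, and 21502, 20049 and 22318 in control 1 to 3. Both treated groups stood above all control libraries, at log2 fold changes of 0.20 (SE 0.11, adjusted p = 0.7894) with SKF-96365 and 0.17 (SE 0.11, adjusted p = 0.9995) with 2-APB in limma. HERPUD1, which brings substrates to the ER degradation complex, showed the same order, at 1183, 1201 and 1205 normalized counts in 2-APB 1 to 3, 1228, 1175 and 1131 in SKF-96365 1 to 3, and 1003, 1098 and 1046 in control 1 to 3. Its log2 fold changes were 0.17 (SE 0.10, adjusted p = 0.7894) with SKF-96365 and 0.19 (SE 0.10, adjusted p = 0.9995) with 2-APB in limma. Between 2-APB and SKF-96365 the fold changes were -0.028 (SE 0.11, adjusted p = 0.9481) for HSP90B1 and 0.023 (SE 0.10, adjusted p = 0.9533) for HERPUD1 in limma, with 95% intervals of -0.27 to 0.21 and -0.20 to 0.24. The difference from control in these genes rests on the same 3 control libraries in both comparisons, and none of these values passed the test.

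Groups that did not overlap were few. Higher with SKF-96365 than in every control library were HSP90B1, HERPUD1 and ERO1A, 3 of 34, against 3.26% of all genes, and lower were 0 of 34, against 2.94%. ERO1A encodes the oxidase that recharges disulfide isomerases, and averaged 2169.8 ± 59.6 with SKF-96365 and 1929 ± 105 in control (SD, n = 3 each). Higher with 2-APB were HSP90B1, HERPUD1 and CALR, 3 of 34 against 3.61%. Lower were DNAJB9 and HSPA13, 2 of 34 against 3.97%. For DNAJB9 the groups all but touched, with 2-APB 1 at 261.995 and control 1 at 262.02 normalized counts, a gap smaller than 1 read. HSPA13, an Hsp70-family ATPase gene, averaged 1517 ± 139.9 with 2-APB and 1706 ± 71.5 in control (SD, n = 3 each). Its log2 fold change was -0.17 (SE 0.11, adjusted p = 0.9995) in limma, and -0.10 without 2-APB 3. With 2-APB against SKF-96365, DERL2 was higher (1 of 34 against 8.21%), and DNAJC10, SYVN1, ERO1A, ERN1 and HSPA13 were lower (5 of 34 against 8.79%).

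SDF2L1, a small luminal partner of BiP's J-domain proteins, had the largest SD over the 9 libraries on the log2 scale among the 34 (0.55, with DNAJB9 next at 0.48). It was at 390.3, 338 and 658 normalized counts in 2-APB 1 to 3, 690.1, 296 and 294 in SKF-96365 1 to 3, and 627, 604 and 284 in control 1 to 3. Its highest value was 2.43 times its lowest, with 2-APB 3, SKF-96365 1, control 1 and control 2 at 604 to 690.1 and the other 5 libraries at 284 to 390.3, so every group was split. Log2 fold changes against control were -0.28 (SE 0.40) with SKF-96365 and -0.10 (SE 0.40) with 2-APB. DNAJB11, the gene of ERdj3, which delivers unfolded chains to BiP, ran from 521 to 864. DNAJC3, the gene of P58IPK, another co-chaperone, ran from 1158 to 1951. HYOU1, a nucleotide exchange factor of BiP, ran from 3356 to 4319.6.

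DNAJB9, the gene of ERdj4, which represses IRE1 and is induced through XBP1, was at 262, 254 and 197 normalized counts in 2-APB 1 to 3, 227, 443 and 509 in SKF-96365 1 to 3, and 262, 317 and 446 in control 1 to 3. SKF-96365 2, SKF-96365 3 and control 3 were the 3 highest libraries and 2-APB 3 the lowest. Log2 fold changes were 0.16 (SE 0.30, adjusted p = 0.8819) with SKF-96365 and -0.50 (SE 0.30, adjusted p = 0.9995) with 2-APB against control, and -0.65 (SE 0.30, adjusted p = 0.6857) with 2-APB against SKF-96365, in limma. The SKF-96365 value ran from -0.072 without SKF-96365 3 to 0.51 without SKF-96365 1. The 2-APB value was -0.29 when control 3 was left out and -0.67 when control 1 was, and against SKF-96365 from -1.01 without SKF-96365 1 to -0.43 without SKF-96365 3. In GENCODE 29 the exons of DNAJB9 overlap those of THAP5 (mean 472) and PNPLA8 (mean 314) on the other strand, and the strand setting of the counts is not given. DNAJC10, the gene of the ER reductase ERdj5, had a log2 fold change of -0.37 (SE 0.16, adjusted p = 0.6836) with 2-APB against SKF-96365 in limma, and averaged 4179 ± 161 and 5469.6 ± 1033 (SD, n = 3 each).

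**Figure D4:**
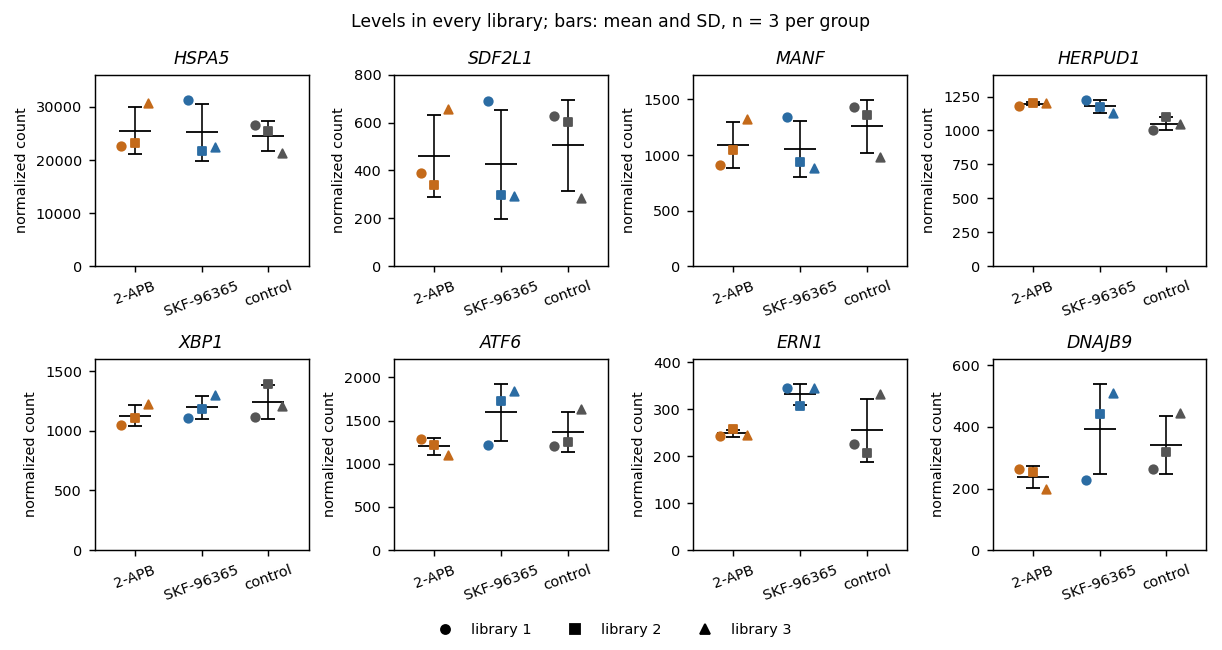
Normalized counts (y axis, from 0) of 8 genes in each library, by group, with the group mean and SD (bars, n = 3). Both treated groups overlap control for 6 of the 8 genes; for HERPUD1 both treated groups lie above control, and for DNAJB9 the highest 2-APB library (261.995) and the lowest control library (262.02) all but touch.

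The sensors are membrane proteins of the ER. ERN1, the kinase and ribonuclease that splices XBP1 mRNA, was at 242, 258 and 246 normalized counts in 2-APB 1 to 3, 346, 306 and 344 in SKF-96365 1 to 3, and 226, 207 and 332 in control 1 to 3. SKF-96365 1 and 3 and control 3 were highest, and control 2 lowest. Against control its log2 fold change was 0.41 (SE 0.18, adjusted p = 0.7894) with SKF-96365 and -0.0067 (SE 0.18, adjusted p = 0.9995) with 2-APB, and with 2-APB against SKF-96365 it was -0.42 (SE 0.18, adjusted p = 0.6836), in limma. The SKF-96365 value was 0.27 without control 2 and 0.61 without control 3.

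ATF6, the sensor that is cut in the Golgi to free a transcription factor, was at 1285, 1222 and 1096 normalized counts in 2-APB 1 to 3, 1219, 1727 and 1842 in SKF-96365 1 to 3, and 1211, 1251 and 1631 in control 1 to 3. SKF-96365 2, SKF-96365 3 and control 3 were highest. With 2-APB against SKF-96365 the log2 fold change was -0.39 (SE 0.18, adjusted p = 0.6836) in limma, and -0.28 without SKF-96365 3 and -0.57 without SKF-96365 1. EIF2AK3, the kinase PERK that phosphorylates the initiation factor eIF2alpha, was at 304, 312 and 237 normalized counts in 2-APB 1 to 3, 245, 412 and 443 in SKF-96365 1 to 3, and 276, 372 and 342 in control 1 to 3. SKF-96365 1 and 2-APB 3 were the lowest libraries, and SKF-96365 3 the highest. Its log2 fold changes were 0.12 (SE 0.23) with SKF-96365 and -0.22 (SE 0.23) with 2-APB against control.

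XBP1 encodes a transcription factor whose active form is made from the mRNA spliced by IRE1, and counts per gene do not tell the spliced from the unspliced form. It was at 1046, 1110.5 and 1224 normalized counts in 2-APB 1 to 3, 1108, 1183 and 1297 in SKF-96365 1 to 3, and 1116, 1395 and 1204 in control 1 to 3. Control 2 was highest and 2-APB 1 lowest, and all groups overlapped. Log2 fold changes were -0.047 (SE 0.12, adjusted p = 0.9169) with SKF-96365 and -0.13 (SE 0.12, adjusted p = 0.9995) with 2-APB against control, and -0.086 (SE 0.12, adjusted p = 0.8434) with 2-APB against SKF-96365, in limma. The 95% intervals were -0.32 to 0.23, -0.41 to 0.14 and -0.36 to 0.19. The SKF-96365 value was -0.12 without control 1 and 0.041 without control 2. The 2-APB value against control was -0.20 and -0.045 without the same libraries. Against SKF-96365 it was -0.15 without 2-APB 3 and -0.026 without SKF-96365 3.

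Disulfide isomerases form and reshuffle disulfide bonds. P4HB, the disulfide isomerase PDI, ran from 11328 to 12349.8 normalized counts over the 9 libraries, a ratio of 1.09, the lowest of the 34. Its relatives PDIA3, PDIA4 and PDIA6 ran from 7551 to 9163, 7232 to 8609 and 5819 to 7359. PDIA3 had a log2 fold change of 0.17 (SE 0.10, adjusted p = 0.7894) with SKF-96365 against control in limma. Its pseudogene PDIA3P1 had a mean of 506 beside 8418 for PDIA3, and reads of such a pair can be shared. PPIB, a prolyl isomerase, ran from 2513 to 3089. ERO1A with 2-APB against SKF-96365 had a log2 fold change of -0.25 (SE 0.11, adjusted p = 0.6843) in limma. CALR ran from 15562 to 17439.7 and CANX from 17924 to 24992, with CANX lowest in 2-APB 3 and SKF-96365 1.

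MANF and CRELD2 encode small luminal proteins that ER stress releases. MANF was at 912, 1044 and 1321 normalized counts in 2-APB 1 to 3, 1342, 934 and 884 in SKF-96365 1 to 3, and 1433, 1359 and 984 in control 1 to 3. Control 1 and 2, SKF-96365 1 and 2-APB 3 were the 4 highest libraries. Log2 fold changes were -0.26 (SE 0.21) with SKF-96365 and -0.20 (SE 0.21) with 2-APB against control. CRELD2 varied less, from 535 to 681.

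Genes of ER-associated degradation take misfolded proteins to the cytosol. SYVN1 (the ubiquitin ligase HRD1) ran from 469 to 660.3, and its partner SEL1L from 1767 to 2781. Exons of SYVN1 overlap FAU (mean 2122, same strand) and MRPL49 (mean 1033, other strand), so part of its reads could belong to either. EDEM1 and EDEM2, which mark glycoproteins for degradation, ran from 1348 to 2127 and 536 to 1057, with SKF-96365 2 and 3 and control 3 the 3 highest libraries for both. DERL1 and DERL2, membrane proteins of the export channel, ran from 1087 to 1290.1 and 664 to 1028. Exons of DERL2 (mean 879) overlap those of MIS12 (mean 667) on the other strand. DERL2 had log2 fold changes of -0.26 (SE 0.16, adjusted p = 0.7894) with SKF-96365 against control and 0.34 (SE 0.16) with 2-APB against SKF-96365, in limma. The SKF-96365 value was -0.41 without control 3 and -0.17 without SKF-96365 2. SELENOS, a selenoprotein of the same complex, ran from 708 to 908.

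The translocon subunits SEC61A1 and SEC61B, through which proteins enter the ER, ran from 4346 to 5680.3 and 426 to 652. SEC61A1 was at 4346, 4466 and 4650.2 normalized counts in 2-APB 1 to 3, 4686, 4626 and 4603 in SKF-96365 1 to 3, and 5680.3, 5337 and 4513 in control 1 to 3. Control 1 and 2 were the highest libraries and control 3 stood among the treated ones. Its log2 fold change was -0.20 (SE 0.11, adjusted p = 0.9995) with 2-APB in limma, -0.30 without control 3 and -0.13 without control 1. Exons of SEC61A1 overlap RUVBL1 (mean 2158) on the other strand. WFS1, an ER membrane protein with a role in calcium balance, ran from 291 to 401.

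The order of the libraries differed between members, also within a role. In DNAJB9, DNAJC10, PDIA6, EDEM1, EDEM2 and ATF6, control 3, SKF-96365 2 and SKF-96365 3 were the 3 highest libraries, 6 of 34 genes, against 16.4% of all tested genes. In HSPA5, DNAJB11, DNAJC3, SDF2L1 and DERL2 the same libraries were the 3 lowest, 5 of 34, against 17.6%. Both counts lie near the share over all genes. Beside them, the summed level of 36 DNA replication genes was 35689 in control 3 and 34397 and 36025 in SKF-96365 2 and 3, and 53723 to 76444 in the other 6 libraries. Its part in these orders was not tested. In another order, 2-APB 3 and SKF-96365 1 were the 2 highest libraries for HSPA5, HSP90B1, SDF2L1, HERPUD1 and SEC61B, 5 of 34, against 6.44% of all tested genes. These orders were looked up after the values were seen, and the libraries in them cross the labelled groups.

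Other genes of the pathway were read from 5 lists of 108 genes, 105 of them tested. With limma, 0 of the 105 were called in each of the 3 comparisons, with 0% of all genes called in each. The PERK branch list, with 9 of 10 tested, had 6 positive and 3 negative log2 fold changes with SKF-96365, and 2 positive and 7 negative with 2-APB, against control. With 2-APB against SKF-96365 it had 3 positive and 6 negative, from -1.08 to 0.75. ATF4, the factor translated when PERK is active, was at 3216, 3173 and 4144 normalized counts in 2-APB 1 to 3, 4067, 2788 and 2715 in SKF-96365 1 to 3, and 3748, 3747 and 2897 in control 1 to 3, and its protein is set mainly by translation. It was lowest in SKF-96365 2 and 3 and control 3. DDIT3, the stress factor CHOP, named after its values were seen, was at 169, 184 and 169 normalized counts in 2-APB 1 to 3, 243, 354 and 367 in SKF-96365 1 to 3, and 112, 132 and 396 in control 1 to 3. The same 3 libraries were its highest. Of the 9 tested genes of this list, these libraries were the 3 highest in 4 and the 3 lowest in 1. Over the 5 lists that held for 27 and 19 of 105, against 16.4% and 17.6% of all tested genes. In the list of other luminal folding genes, 20 of 37 were positive with SKF-96365 and 19 of 37 with 2-APB, and GANAB, glucosidase II, had the highest mean (8559.8). Other ERAD genes were positive in 8 of 19 in both comparisons, with VCP, the ATPase that pulls proteins out of the membrane, highest in mean (5095). Translocation genes were positive in 17 of 31 with SKF-96365 and 12 of 31 with 2-APB, and genes of ATF6 processing in 5 and 4 of 9. At an unadjusted p under 0.05 in limma, 2-APB against SKF-96365 had 3 of 9 PERK branch genes, against 7.30% of all genes. There, ATF6 processing had 1 of 9, other ERAD genes 1 of 19, luminal folding genes 0 of 37 and translocation genes 0 of 31. Against control, only 1 PERK branch gene stood there with SKF-96365 and 2 luminal folding genes with 2-APB, beside 4.0% and 2.80% of all genes.

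The comparisons were repeated without some of the libraries that stood with another group. Without control 3 and SKF-96365 1, limma called 12 of the 34 with SKF-96365 against control, 7 higher (ATF6, DNAJC10, EDEM1, DNAJB9, PDIA3, ERN1 and EDEM2) and 5 lower (MANF, DNAJB11, DNAJC3, DERL2 and SDF2L1), beside 4823 of all 17492 genes (27.6%). DNAJB9 had a log2 fold change of 0.72 (adjusted p = 0.0179), and SDF2L1 one of -1.06 (adjusted p = 0.0163), in limma. For 2-APB against control, 0 of the 34 were called in that fit, beside 0 of all 17492 genes (0%). Without 2-APB 3 as well, MANF (log2 fold change -0.52), SDF2L1 (-0.76), SEC61A1 (-0.32) and HYOU1 (-0.29) were called lower with 2-APB than in control, 4 of 34, beside 1735 genes (9.92%). For SKF-96365 against control that fit called 16 of the 34, beside 37.6% of all genes. For 2-APB against SKF-96365 each fit called 9 of the 34, 3 higher and 6 lower, beside 13.1% of all genes in the fit without control 3 and SKF-96365 1 and 14.7% without 2-APB 3 as well. EIF2AK3 was called only in the fit that kept 2-APB 3, and ERO1A only in the other. The libraries were chosen because they stood apart from their labelled groups, which removes overlap between groups and makes these p-values optimistic. Control 1 was kept, although its Pearson's r was 0.980 with 2-APB 1 and 0.9815 with 2-APB 2, against 0.978 with control 2. With 1 library left out at a time, 0 of the 34 were called in any comparison. Over all 17492 genes these fits called at most 173, for SKF-96365 against control without control 3.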

How the data were processed

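RNA-seq of 9 libraries in 3 groups of 3 was read from deposited signal values, which are gene counts divided by a DESeq2 size factor, per the submitters' processing notes and the values. The aligner, counter, strand setting, genome build and annotation are not given in the sources used here. In every library, 100% of the deposited values were whole multiples of the smallest one within 0.001, so whole reads were recovered, giving 14786059 to 19026545 reads per library. Symbols were paired with the Ensembl identifiers through a gene name table and GENCODE 29, and all 34 genes matched.

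The 17492 genes that reached 10 in 3 or more libraries were tested on log2(value + 1) with limma 3.58.1 in R 4.3.3, all 9 libraries in 1 fit with a mean-variance trend, two-sided, Benjamini-Hochberg adjusted, calls at 0.05. A fold change on this scale understates the change of low genes. edgeR 4.0.16 (quasi-likelihood) and DESeq2 1.42.0 on the recovered reads were alternatives, beside other scalings, pseudocounts, filters, a replicate block and libraries left out. The code was tested on simulated data. Fold change, error and adjusted p are given for HSPA5, HSP90B1, DNAJB9, HERPUD1, XBP1 and the 5 genes with the smallest unadjusted p in each comparison. SDF2L1, MANF and EIF2AK3 are given with fold change and error, and other genes by role. The members and lists were chosen with earlier results of these data known. Promoter sequences are from RefSeq (GRCh38.p14).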

Additional observations from a re-analysis of the deposited data

How the results depend on the processing

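With all 9 libraries, or with 1 left out, 0 of the 34 genes were called in any comparison. Over all genes, DESeq2 called 1 gene for SKF-96365 against control (SPCS2P4) and 5 for 2-APB against SKF-96365, and a fit of only those groups called 4 there. Leaving out 1 library gave 0 to 173 genes for SKF-96365 against control, with 173 without control 3, and 0 to 4 for 2-APB against SKF-96365. The median log2 fold change of the 34 ran from -0.013 to 0.084 for SKF-96365 against control, from -0.088 to -0.035 for 2-APB against control, and from -0.097 to -0.033 for 2-APB against SKF-96365. For 2-APB against control it was -0.032 after upper-quartile rescaling, -0.024 after total rescaling and -0.031 after quantile normalization, and for 2-APB against SKF-96365 -0.013 after total rescaling.

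Signs changed in HSPA5, HSP90B1, DNAJB9, HERPUD1 and XBP1, each in at least 1 comparison, and the cause was not tested. Only the 13 genes given with an adjusted p from the fit of all 9 libraries were followed one by one. Of the 34, 15 to 23 were positive for SKF-96365 against control with 1 library left out, and 14 for 2-APB against control after total rescaling. With 1 library left out, SKF-96365 against control ran from -0.14 to 0.12 for HSPA5, from -0.12 to 0.041 for XBP1 and from -0.072 to 0.51 for DNAJB9. HSPA5 ran from -0.087 to 0.13 for 2-APB against control and from -0.11 to 0.19 for 2-APB against SKF-96365, where HERPUD1 ran from -0.0062 to 0.053 and HSP90B1 from -0.054 to 0.0025. HSP90B1 there was 0.025 after total rescaling and 0.012 after quantile normalization.

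Without control 3 and SKF-96365 1, chosen with earlier results known, 12 of 34 (4823 genes) were called for SKF-96365 against control, with a median of 0.066 and HSPA5 at -0.24. For 2-APB against SKF-96365 it was 9 of 34 (2283 genes), with HSP90B1 at 0.0025, and HSPA5 for 2-APB against control was -0.043. Without 2-APB 3 as well, chosen after seeing the data, the counts were 16 (6569 genes, median 0.066, HSPA5 -0.24), 4 for 2-APB against control (1735 genes, median -0.11, HSPA5 -0.18) and 9 for 2-APB against SKF-96365 (2575 genes, median -0.11).

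Same-numbered libraries correlated at -0.35 to 0.50 in their deviations from group means, not all above 0.1. Libraries that stand with another group can shape these deviations, so the check cannot tell whether the numbers pair the libraries. A fit with the replicate block called 0 genes in each comparison. For SKF-96365 against control, libraries 1 and 3 correlated best with their own number, and in the other comparisons 0 libraries did.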
